A study of Mus musculus with 13 samples.

Results

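Intermediate filament genes of neurons and glia were followed in crushed and uncrushed sciatic nerves of mice that had lost Raptor in Schwann cells (SCs). The 8 genes were the neurofilament triplet Nefl, Nefm, and Nefh, the other neuronal filament genes Prph and Ina, and Vim, Nes, and Gfap, out of 40787 genes in the count table. They were chosen by family, and the rule that chose them also selected on measured values, because it named Nefh and Gfap for their difference between genotypes. Genotype differences are therefore given as descriptions without a test, and tests were kept for the response to injury and for whether that response differed between genotypes. For Nefh and Gfap the injury tests use libraries that also entered this choice, so they are not independent of it. RNA was sequenced from 13 sciatic nerves of C57BL/6 mice, all taken 5 d after a unilateral crush (days post crush [dpc]). All mice, controls included, were homozygous for floxed Rptor alleles and received tamoxifen at 2 months of age, and surgery followed 2 months after the last injection. Controls carried no Cre and gave 3 injured and 3 contralateral nerves. RaptorKO mice also carried a tamoxifen-inducible CreERT2, which recombines Rptor in SCs, and gave 3 injured and 4 contralateral nerves. Contralateral nerves are the uninjured nerves of the other side, so they are not nerves of mice that had no surgery.

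Intermediate filaments are rope-like polymers that give cells mechanical strength. In axons they are built mainly of the light, medium, and heavy neurofilament subunits together with internexin and peripherin, and their amount is known to set axon caliber. The messenger RNAs of these subunits are made chiefly in neuronal cell bodies, which lie outside the sciatic nerve, in the spinal cord and ganglia. SCs and fibroblasts assemble vimentin, dividing and immature cells add nestin, and GFAP is known in the nerve from nonmyelinating and immature SCs. After a crush, axons distal to the injury degenerate, myelin SCs dedifferentiate and divide, and macrophages enter.

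On GRCm38, Nefl (ENSMUSG00000022055, chromosome 14, 68083863 to 68089095, plus strand) and Nefm (ENSMUSG00000022054, chromosome 14, 68082590 to 68124846, minus strand) are neighbors, and an annotated Nefm transcript has exons that overlap Nefl on the other strand. The sources used here do not give the strand setting of the counting, so reads in that overlap cannot be assigned with certainty to either gene. The exons of Ina (ENSMUSG00000034336, chromosome 19, 47014698 to 47025327, plus strand) likewise overlap those of Nt5c2. Nefh (ENSMUSG00000020396, minus strand) lies on chromosome 11 from 4938754 to 4948064, and Gfap (ENSMUSG00000020932, minus strand) on the same chromosome from 102887336 to 102900912. Rptor, the deleted gene, lies on chromosome 11 too. Prph (ENSMUSG00000023484, plus strand) lies on chromosome 15 from 99055174 to 99058978, Vim (ENSMUSG00000026728, plus strand) on chromosome 2 from 13573927 to 13582826, and Nes (ENSMUSG00000004891, plus strand) on chromosome 3 from 87971078 to 87980451.

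Promoter sequences were held for 5 of the 8 genes in the RefSeq table of GRCm38.p6. Those of Prph and Gfap are shown because these genes, one neuronal and one glial, moved in opposite directions after injury in control nerves. Each line gives the 250 bases before the RefSeq start, 5′ to 3′ on the strand of the gene, with motif matches in capitals. The Prph window is chr15:99054924-99055173 on the plus strand and the Gfap window is chr11:102897201-102897450 on the minus strand.
Prph: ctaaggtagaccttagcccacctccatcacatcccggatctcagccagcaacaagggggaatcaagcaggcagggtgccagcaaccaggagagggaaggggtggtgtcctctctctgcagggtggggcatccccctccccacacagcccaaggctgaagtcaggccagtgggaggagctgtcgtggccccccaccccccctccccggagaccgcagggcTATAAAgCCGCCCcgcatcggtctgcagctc
Gfap: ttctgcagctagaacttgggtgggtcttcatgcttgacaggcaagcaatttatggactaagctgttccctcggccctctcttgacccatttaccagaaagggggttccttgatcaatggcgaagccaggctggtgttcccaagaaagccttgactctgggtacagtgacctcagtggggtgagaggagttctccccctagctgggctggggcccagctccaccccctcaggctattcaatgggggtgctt
The motifs searched on both strands were the TATA box (TATAAA), the AP-1 site (TGANTCA), the Sp1 GC box (GGGCGG), and the CCAAT box (CCAAT). The Prph window held a TATA box and, next to it and not overlapping it, a GC box read on the other strand. The Gfap window held none of the 4 motifs. Of 32851 promoters of the same length, 12.4% held the TATA box, 6.75% the AP-1 site, 32.7% the GC box, and 33.8% the CCAAT box. These matches describe letters and not sites of binding.

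Library totals ranged from 8200458 to 13581775 counts, and levels are given as CPM, counts relative to the TMM-scaled library total. Rptor reached 35.1 to 52.5 CPM in the 6 control libraries and 22.1 to 28.6 CPM in the 7 RaptorKO libraries, without overlap. Both libraries of control 3 stood apart in sex-linked genes, with 14462 and 15017 counts of Xist against 4 to 17 in the other 11 libraries. Y-linked genes held 20 and 10 counts there against 1456 to 2338 in the others. This is the pattern of a female mouse, and the others have that of males. No RaptorKO library had the female pattern, so sex was not balanced in the genotype differences and the interaction. The control injury effects of Nefl, Nefm, Nefh, Prph, Vim, and Gfap are therefore also given without both libraries of control 3. Each genotype difference used 1 library of control 3, and the values of Nefh and Gfap are given without it. An injured and a contralateral library of the same genotype and number were read as nerves of 1 mouse, and the tests below treat libraries as independent unless a replicate block is named. The whole nerve was sequenced, and fewer cells of a type and less RNA per cell cannot be told apart.

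Vim and Nes were by far the most abundant of the 8 transcripts, and the neuronal genes were rare. Compared by length, as CPM per kilobase of exon, control contralateral nerves held 486 ± 11.6 of Vim and 182 ± 4.94 of Nes (SD, n = 3). Prph followed at 3.66 ± 0.654, Nefl at 2.05 ± 0.529, Gfap at 1.90 ± 0.339, Nefm at 1.2 ± 0.146, Nefh at 0.828 ± 0.224, and Ina at 0.0603 ± 0.104 CPM per kilobase. The libraries of Nefl and Gfap overlapped in this order, as did those of Nefm and Nefh, and the other neighbors did not. In RaptorKO contralateral nerves the order was Vim at 541 ± 40.4, Nes at 183 ± 14.8, Prph at 5.49 ± 0.441, Nefl at 3.64 ± 0.339, Nefh at 3.09 ± 0.695, Nefm at 1.85 ± 0.249, Gfap at 0.856 ± 0.233, and Ina at 0.0857 ± 0.0687 CPM per kilobase (SD, n = 4). There only Nefl and Nefh overlapped as neighbors. In injured nerves Vim came first in both genotypes, at 1335 ± 79.3 in controls and 1330 ± 151 CPM per kilobase in RaptorKO (SD, n = 3 each). Gfap came next after Nes in injured controls at 5.15 ± 0.328 CPM per kilobase, above Prph at 0.913 ± 0.315 and without overlap between them. In injured RaptorKO nerves Prph at 0.964 ± 0.308 and Gfap at 0.685 ± 0.227 CPM per kilobase overlapped. The order of the middle ranks depended on which length was used.

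**Figure D1:**
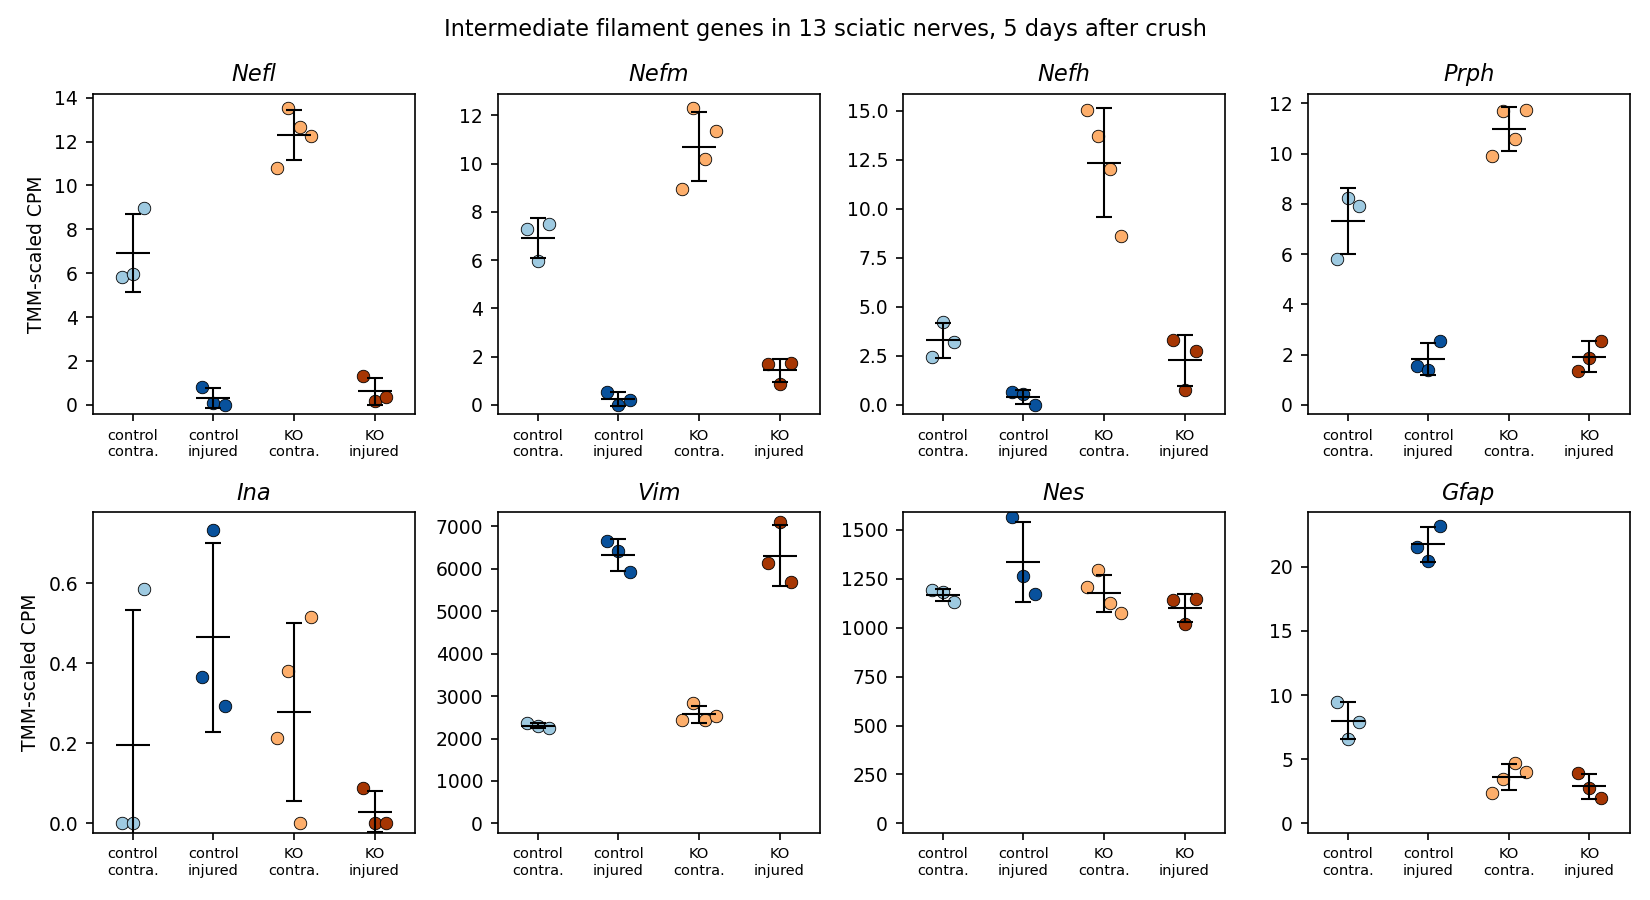
TMM-scaled CPM (linear axes, a separate range in each panel) of the 8 genes in every library, grouped by genotype and side, with the mean and SD in black. Within each genotype Nefl, Nefm, Nefh, and Prph sit higher in contralateral than in injured nerves and Vim the reverse, while Nefh of RaptorKO injured nerves reaches the range of control contralateral nerves, and Gfap is high in the 3 control injured nerves alone, at 20.5 to 23.2 CPM.

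All genes of the neurofilament triplet were lower distal to the crush than in contralateral nerves of the same genotype. Nefl, which encodes the light subunit that starts filament assembly, held 64, 73, and 92 counts in control contralateral nerves (5.82, 5.95, and 8.98 CPM) and 9, 1, and 0 counts in control injured nerves. In RaptorKO nerves it held 101, 177, 133, and 95 counts on the contralateral side (10.8, 13.5, 12.7, and 12.2 CPM) and 15, 2, and 4 counts on the injured side. No injured library reached a contralateral one in either genotype. The log2 fold change of Nefl with injury was -4.45 ± 0.673 in controls (SE, adjusted p = 9.23e-05, edgeR quasi-likelihood test) and -4.32 ± 0.485 in RaptorKO nerves (adjusted p = 2.32e-05, same test). The counted ratio of contralateral to injured Nefl was 21.9 in controls, with an exact 95% interval of 11.7 to 46.3 that covers counting error only. The size of the change rests on few counts and moved with single libraries. It was -6.88 in controls without control injured 1, -3.68 without both libraries of control 3, and -5.54 in RaptorKO nerves without RaptorKO injured 1.

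Nefm, the medium subunit, showed a similar picture with more counts left in injured RaptorKO nerves. Control contralateral nerves held 80, 73, and 77 counts (7.28, 5.95, and 7.52 CPM) and control injured nerves 6, 0, and 2. RaptorKO contralateral nerves held 84, 161, 107, and 88 counts (8.96, 12.3, 10.2, and 11.3 CPM) and RaptorKO injured nerves 19, 11, and 19. Injured and contralateral libraries did not overlap in either genotype. The log2 fold change was -4.76 ± 0.594 in controls (SE, adjusted p = 1.84e-05, edgeR) and -2.91 ± 0.31 in RaptorKO nerves (adjusted p = 1.64e-05, edgeR). Without control injured 1 the control value was -6.02, without control injured 2 it was -4.16, and without both libraries of control 3 it was -4.56.

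Nefh, the heavy subunit whose long tail carries many phosphate groups in mature axons, held 27, 52, and 33 counts in control contralateral nerves (2.46, 4.24, and 3.22 CPM) and 7, 6, and 0 counts in control injured nerves. It was too low in controls to pass the filter of 50 counts in at least 2 libraries. In the fit without a count minimum its log2 fold change was -2.99 ± 0.646 (SE, adjusted p = 1.98e-05, edgeR), and -2.46 ± 0.669 without both libraries of control 3, and the groups did not overlap. RaptorKO contralateral nerves held 141, 180, 126, and 67 counts (15.0, 13.7, 12.0, and 8.63 CPM), and RaptorKO injured nerves 37, 10, and 30 counts (3.29, 0.786, and 2.74 CPM). All injured RaptorKO libraries were below all contralateral ones, with a log2 fold change of -2.46 ± 0.409 (SE, adjusted p = 0.000412, edgeR). These libraries also entered the genotype difference for which Nefh was chosen, so its p-values are not independent of that choice.

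Prph encodes peripherin, a filament protein of peripheral neurons, and also fell with injury. Control contralateral nerves held 64, 101, and 81 counts (5.82, 8.24, and 7.91 CPM) and control injured nerves 17, 15, and 26 (1.55, 1.38, and 2.55 CPM). RaptorKO contralateral nerves held 93, 153, 111, and 91 counts (9.92, 11.7, 10.6, and 11.7 CPM) and RaptorKO injured nerves 15, 24, and 28 (1.33, 1.89, and 2.56 CPM). Injured libraries were below contralateral ones in both genotypes without overlap. The log2 fold change was -2.03 ± 0.344 in controls (SE, adjusted p = 0.000249, edgeR), -2.28 there without both libraries of control 3, and -2.51 ± 0.275 in RaptorKO nerves (adjusted p = 2.03e-05, edgeR). Ina, which encodes alpha-internexin, held 0 to 8 counts in every library. Control contralateral nerves held 0, 0, and 6 counts, control injured nerves 4, 8, and 3, RaptorKO contralateral nerves 2, 5, 0, and 4, and RaptorKO injured nerves 1, 0, and 0. No difference with injury was detectable for Ina at this depth (adjusted p = 0.508 in controls and 0.207 in RaptorKO nerves without a count minimum, edgeR).

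Vim, which encodes the vimentin of SCs, fibroblasts, endothelium, and macrophages, rose in every injured nerve. It was at 2363, 2300, and 2253 CPM in control contralateral and 6663, 6415, and 5924 CPM in control injured nerves. RaptorKO nerves held 2441, 2847, 2445, and 2539 CPM on the contralateral and 6138, 7094, and 5692 CPM on the injured side. The sides did not overlap in either genotype. The log2 fold change was 1.43 ± 0.0776 in controls (SE, adjusted p = 1.27e-08, edgeR), 1.47 without both libraries of control 3, and 1.29 ± 0.105 in RaptorKO nerves (adjusted p = 2.23e-06, edgeR). Vim made up 0.214% of all counts in control contralateral and 0.664% in control injured nerves.

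Nes, which encodes nestin, did not pass the test with injury in either genotype. It was at 1191, 1180, and 1131 CPM in control contralateral and 1563, 1264, and 1174 CPM in control injured nerves, which overlapped. RaptorKO nerves held 1209, 1292, 1126, and 1076 CPM on the contralateral and 1139, 1016, and 1147 CPM on the injured side, which also overlapped. The log2 fold change was 0.17 ± 0.112 in controls (SE, adjusted p = 0.211, edgeR) and -0.10 ± 0.0987 in RaptorKO nerves (adjusted p = 0.408, edgeR). With scaling by total counts, which moved the median of all genes to 0.199 in controls and 0.186 in RaptorKO nerves, Nes passed in controls at 0.37 (adjusted p = 0.0135) and turned to 0.06 in RaptorKO nerves. It also passed in controls at 0.27 without control injured 3 (adjusted p = 0.0406).

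Gfap rose with injury in control nerves. It held 104, 81, and 81 counts in control contralateral (9.47, 6.61, and 7.91 CPM) and 236, 223, and 237 counts in control injured nerves (21.6, 20.5, and 23.2 CPM). The groups did not overlap, and the log2 fold change was 1.42 ± 0.185 (SE, adjusted p = 2.98e-05, edgeR) and 1.37 without both libraries of control 3. The control libraries also entered the genotype difference for which Gfap was chosen, so this p-value is not independent of that choice. RaptorKO nerves held 22, 45, 49, and 31 counts on the contralateral (2.35, 3.44, 4.67, and 4.0 CPM) and 44, 35, and 22 counts on the injured side (3.91, 2.75, and 2.01 CPM). These sides overlapped, and Gfap was below the count filter there. Without a count minimum its log2 fold change in RaptorKO nerves was -0.30 ± 0.397 (SE, adjusted p = 0.572, edgeR).

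A gene was called when its adjusted p was below 0.05 and its fold change above 1.2. With injury in controls 2 of the 8 genes were called higher (Vim and Gfap), 3 lower (Nefl, Nefm, and Prph), Nes was not called, and Nefh and Ina were not tested. Over all 12430 genes tested there, 32.4% were called higher and 32.9% lower, and 70.9% did not overlap between the sides. In RaptorKO nerves 1 gene was called higher (Vim), 4 lower (Nefl, Nefm, Nefh, and Prph), Nes was not called, and Gfap and Ina were not tested, beside 30.5% higher, 28.5% lower, and 60.6% not overlapping of 12515 genes. The neuronal genes passed the count filter only through the contralateral nerves, where they are high, so their count is no support for a direction of the family. The calls of Gfap in controls and of Nefh in RaptorKO nerves are not independent of the choice of these genes. Calls in each direction were common across the whole table.

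**Figure D2:**
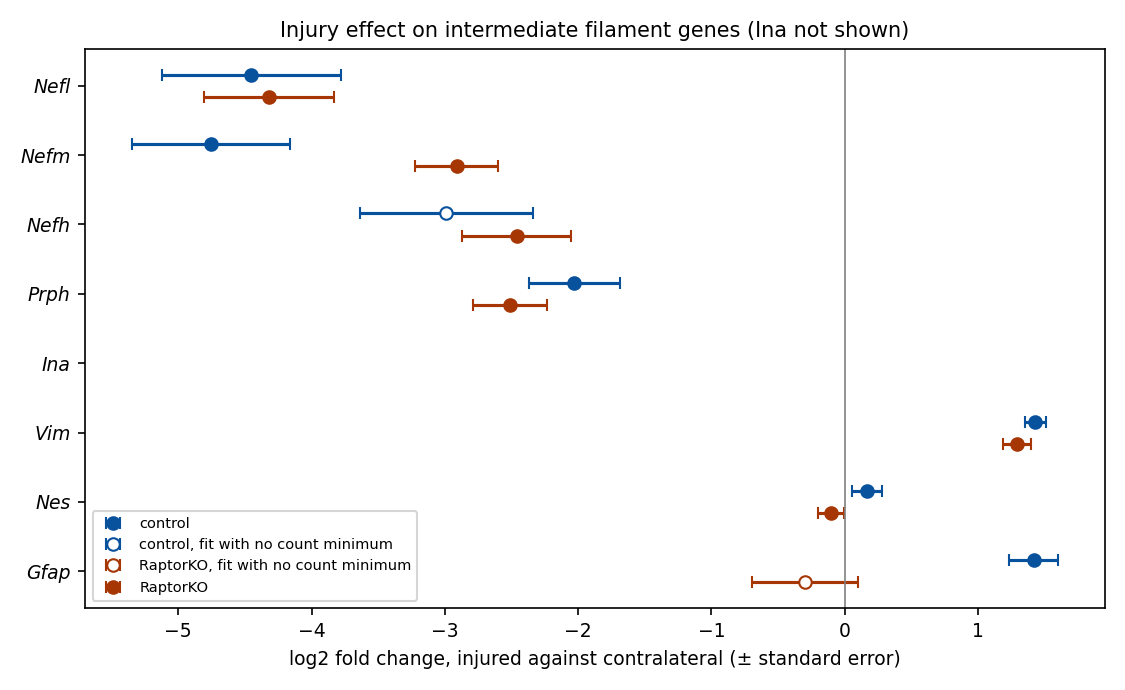
Log2 fold change of injured against contralateral nerves with its SE for 7 genes, controls in blue and RaptorKO in red, open symbols from the fit without a count minimum. Nefl, Nefm, Nefh, and Prph lie between -4.76 and -2.03, Vim lies at 1.43 and 1.29, Nes lies near 0, and Gfap lies at 1.42 in controls and -0.30 in RaptorKO.

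Whether the injury response differed between genotypes was tested in 1 model over the 13 libraries. The test covered the 5 genes that the choice did not single out and that passed the count filter. None was called by edgeR or DESeq2, while 1 had an unadjusted p below 0.05 by edgeR and 2 by DESeq2. Across 12851 genes 1.07% were called higher and 1.41% lower. The gene with the low p was Nefm, whose log2 change was 1.83 ± 0.707 higher in RaptorKO nerves (SE, adjusted p = 0.222). The differences were 0.11 ± 0.997 for Nefl (adjusted p = 0.974), -0.50 ± 0.415 for Prph (adjusted p = 0.679), -0.16 ± 0.13 for Vim (adjusted p = 0.668), and -0.29 ± 0.15 for Nes (adjusted p = 0.43). Ina did not pass the count filter, and without a count minimum its difference was -4.06 ± 2.48 (SE, adjusted p = 0.598, edgeR). With so few Nefl counts in injured nerves, a moderate difference in its response was not detectable. As a description, the difference was 0.55 ± 0.83 for Nefh and -1.76 ± 0.367 for Gfap, whose response to injury was thus lower in RaptorKO nerves on the log2 scale. Gfap was past the call rule here, and no longer so without control contralateral 2, control contralateral 3, control injured 3, or both libraries of control 3, nor with a replicate block. Its value was -1.71 without both libraries of control 3 and -1.73 with the block.

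Between genotypes, the values that chose Nefh and Gfap are described without a test. In contralateral nerves Nefh averaged 3.31 ± 0.895 CPM in controls and 12.4 ± 2.78 CPM in RaptorKO (SD, n = 3 and 4), a log2 difference of 1.92 ± 0.267 (SE). The lowest RaptorKO nerve, at 8.63 CPM, was above the highest control nerve, at 4.24 CPM. Gfap averaged 7.99 ± 1.43 CPM in controls and 3.61 ± 0.983 CPM in RaptorKO, a log2 difference of -1.12 ± 0.28, again without overlap. Without control contralateral 3 these differences were 1.90 for Nefh and -1.125 for Gfap. The other neuronal genes were also higher in each RaptorKO contralateral nerve than in any control one, by a log2 difference of 0.85 ± 0.204 for Nefl, 0.65 ± 0.194 for Nefm, and 0.60 ± 0.19 for Prph. Vim did not overlap either, at a log2 difference of 0.18 ± 0.0844, whereas Nes at 0.03 ± 0.0834 and Ina overlapped. Past the call rule were 2 genes higher (Nefl and Nefh), beside 4.49% of 11878 genes, and 1 lower (Gfap), beside 5.68%, and 23.6% of these genes did not overlap. For Nefh and Gfap, chosen for their genotype difference, passing the rule is no test, here, in injured nerves, or in the interaction. Nefl was no longer past it without control contralateral 1, control contralateral 2, or RaptorKO contralateral 2, and of the 7 libraries left out in turn, only RaptorKO contralateral 3 and RaptorKO contralateral 4 left Gfap past it.

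In injured nerves Gfap averaged 21.7 ± 1.38 CPM in controls and 2.89 ± 0.956 CPM in RaptorKO (SD, n = 3 each), a log2 difference of -2.89 ± 0.246 (SE). The highest RaptorKO nerve, at 3.91 CPM, was far below the lowest control nerve, at 20.5 CPM. Without control injured 3 the log2 difference of Gfap was -2.84. Nefh averaged 0.397 ± 0.346 CPM in controls and 2.27 ± 1.32 CPM in RaptorKO, and Nefm 0.248 ± 0.278 and 1.43 ± 0.490 CPM. Without a count minimum their log2 differences were 2.48 ± 0.715 and 2.49 ± 0.91, and neither gene overlapped between genotypes. Nefl at 1.0 ± 1.16 and Prph at 0.10 ± 0.534 overlapped. Ina went the other way without overlap, with 4, 8, and 3 counts in controls and 1, 0, and 0 in RaptorKO. Without control injured 1 the value of Nefl was 3.43 and that of Nefm 3.75, and without RaptorKO injured 1 that of Nefl was -0.23. That of Nefh ranged from 1.90 to 2.96 with single libraries left out and was 1.90 without control injured 3. Vim differed by 0.01 ± 0.117 and overlapped, and Nes by -0.26 ± 0.128 and did not. Of the 3 genes that passed the filter, Gfap was past the call rule as lower and none as higher, beside 4.44% lower, 4.09% higher, and 26.3% not overlapping of 12040 genes. The genotype and the injury comparisons use the same 13 libraries, so they are not separate evidence.

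**Figure D3:**
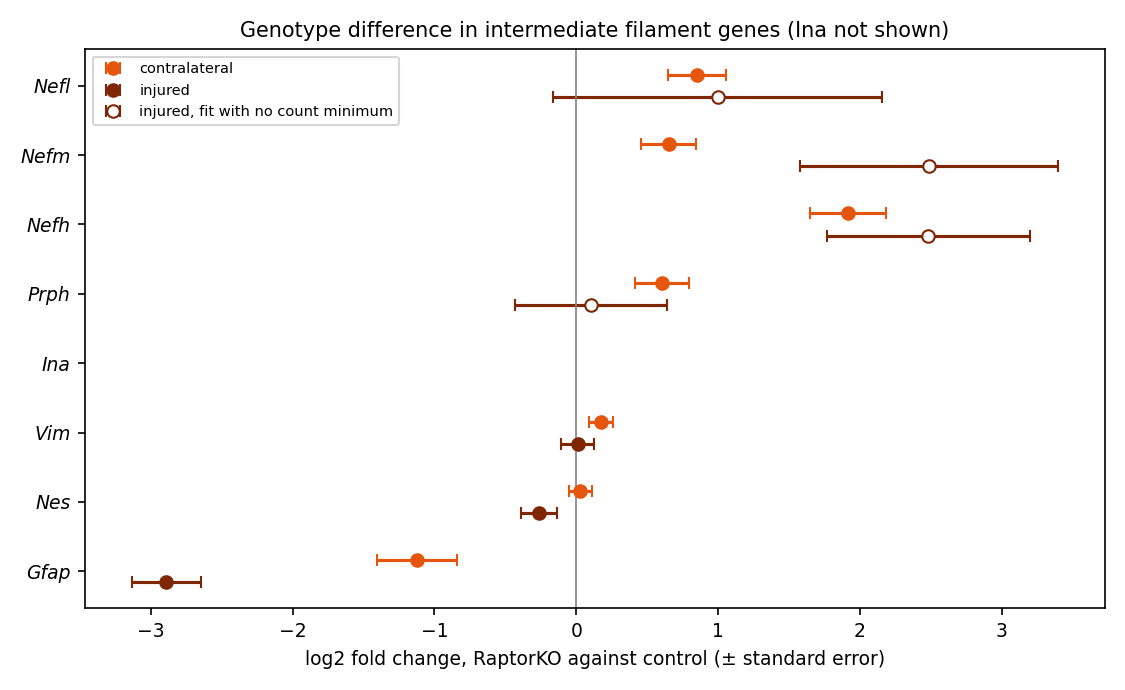
Log2 difference of RaptorKO against control nerves with its SE for 7 genes, contralateral nerves in orange and injured nerves in brown, open symbols from the fit without a count minimum. Nefh lies at 1.92 and 2.48, Gfap lies at -1.12 and -2.89, and Vim and Nes lie between -0.26 and 0.18.

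The triplet as a whole was larger in RaptorKO contralateral nerves, and its makeup differed as well. Summed over Nefl, Nefm, and Nefh, controls held 15.6, 16.2, and 19.7 CPM and RaptorKO nerves 34.8, 39.5, 34.9, and 32.2 CPM on the contralateral side. Injured controls held 2.01, 0.642, and 0.196 CPM, and injured RaptorKO nerves 6.31, 1.81, and 4.85 CPM. Per length, the Nefh share of the triplet was 17.1%, 27.6%, and 16.9% in control contralateral and 44.3%, 36.0%, 35.3%, and 27.9% in RaptorKO contralateral nerves. The lowest RaptorKO share lay just above the highest control share. In injured nerves the triplet held only 71, 23, and 53 counts in RaptorKO and 22, 7, and 2 counts in controls, and no shares are compared there. Since Nefh was chosen for its genotype difference, these shares are a description.

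**Figure D4:**
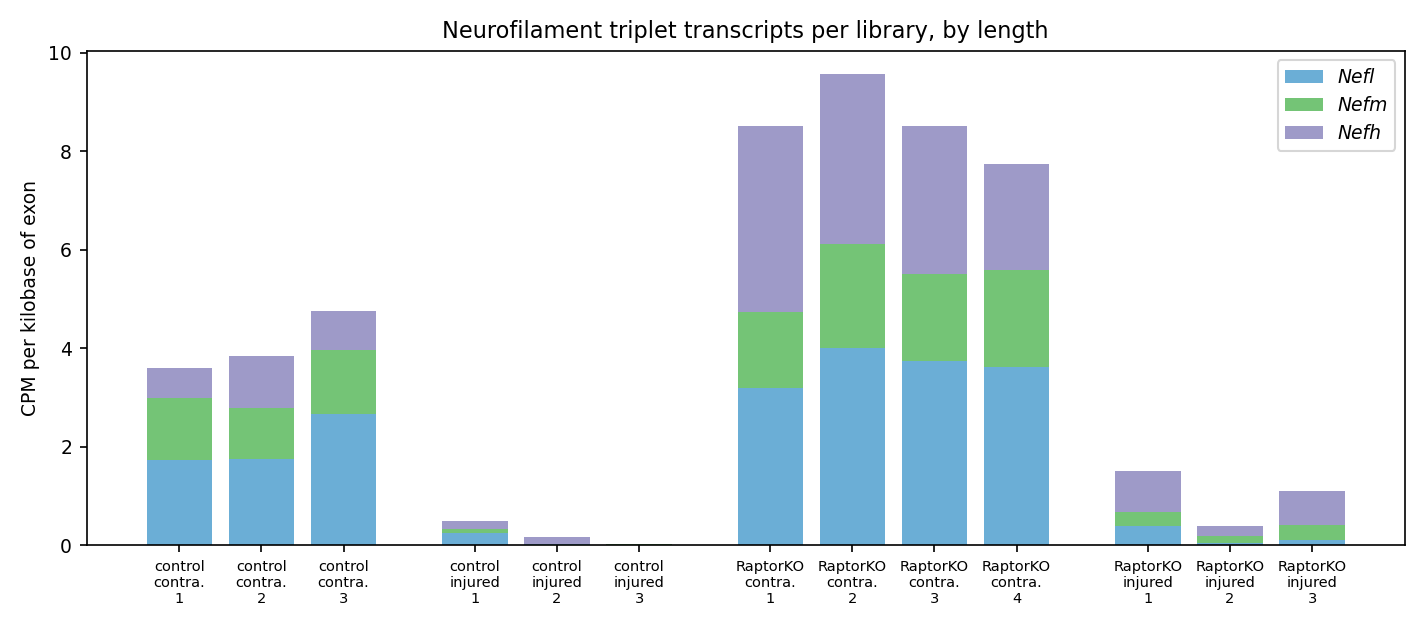
CPM per kilobase of exon (linear axis) of Nefl, Nefm, and Nefh, stacked for each of the 13 libraries by genotype and side. Each RaptorKO contralateral nerve has a taller stack than each control one, with a larger Nefh segment, and the injured stacks are low in both genotypes.

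Genes on a list of neuron markers, filaments aside, moved with injury in both directions, and which cells held their transcripts was not tested. Of 23 neuron markers, summed levels were 1106 to 1181 CPM in control contralateral, 904 to 1151 CPM in RaptorKO contralateral, 550 to 607 CPM in control injured, and 389 to 515 CPM in RaptorKO injured nerves. With injury in controls 4 of 8 tested were lower and 3 higher, and in RaptorKO nerves 4 of 9 were lower and 4 higher. Of all tested genes 32.9% were lower and 32.4% higher in controls, and 28.5% and 30.5% in RaptorKO nerves. Without a count minimum 7 markers were lower and 3 higher in controls and 8 lower and 4 higher in RaptorKO nerves. Sncg, a synuclein and the most abundant of them, was at 901 to 986 CPM in control contralateral, 708 to 971 CPM in RaptorKO contralateral, 117 to 152 CPM in control injured, and 112 to 141 CPM in RaptorKO injured nerves. Snap25, a synaptic vesicle fusion protein, was at 6.36 to 7.22 CPM in control contralateral and 7.24 to 12.4 CPM in RaptorKO contralateral nerves, but at 0 to 0.183 and 0.267 to 0.915 CPM in injured ones. Stmn3 averaged 20.8 and 24.3 CPM in contralateral control and RaptorKO nerves and 1.59 and 2.56 CPM in injured ones. Snap25 and Stmn3 passed the count filter only through the contralateral nerves, where they are high. Tubb3, a tubulin on this list, went the other way, from 7.21 to 219 CPM in controls and from 3.05 to 124 CPM in RaptorKO nerves. The transcription factor Isl1 and the sodium channel Scn10a held 0 or 1 count in every library, whereas in control contralateral nerves the nuclear protein gene Rbfox3 held 7 to 9 counts, Calca 16 to 18, Avil 16 to 26, Pvalb 19 to 30, and Scn9a 3 to 12. Between genotypes in contralateral nerves 1 of 9 tested neuron markers was past the call rule as higher and 1 as lower, beside 4.49% and 5.68% of all tested genes. Their median log2 difference was 0.14 beside 0.01 over all genes. The higher count was 0 without control contralateral 1, and the lower count was 3 without RaptorKO contralateral 2 and 2 without RaptorKO contralateral 4. Their summed level was not higher in RaptorKO than in control contralateral nerves. Most of that sum was Sncg, at means of 805 and 946 CPM, so it says little of the rarer markers. Those went both ways. Snap25 averaged 9.89 CPM in RaptorKO and 6.74 CPM in control contralateral nerves and Pvalb 3.41 and 2.34 CPM. Uchl1 averaged 48.3 and 79.5 CPM and Tubb3 3.05 and 7.21 CPM. The part of the neuron markers in the filament values was not tested.

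Markers of other cells of the nerve moved with injury and with genotype too, and their part in the results for Vim, Nes, and Gfap was not tested. Summed levels of 7 markers of nonmyelinating and immature SCs were 1035 to 1079 CPM in control contralateral, 626 to 826 CPM in RaptorKO contralateral, 2007 to 2330 CPM in control injured, and 1602 to 2056 CPM in RaptorKO injured nerves. In injured nerves most of that sum was Ngfr, at means of 1603 CPM in controls and 1454 CPM in RaptorKO. Scn7a fell from 614 to 133 CPM in controls. With injury 4 of the 7 were called higher and 3 lower in controls, and 4 and 2 in RaptorKO nerves. Over all tested genes 32.4% were higher and 32.9% lower in controls, and 30.5% and 28.5% in RaptorKO nerves. Summed levels of 10 SC markers, led by myelin genes, were 67370 to 74360 and 58630 to 70980 CPM on the contralateral side of controls and RaptorKO, and 4300 to 4839 and 2995 to 3632 CPM on the injured side. The 8 macrophage markers went from 166 to 190 CPM to 2451 to 3058 CPM in controls and from 266 to 358 CPM to 1573 to 3279 CPM in RaptorKO nerves. Fibroblast and perineurium markers (7 genes) ranged from 4702 to 7098 CPM over the control libraries and from 6499 to 11070 CPM over the RaptorKO libraries. In injured nerves all 6 endothelial markers, 6 of 7 tested mural cell markers, and all 5 mast cell markers were past the call rule as higher in RaptorKO, beside 4.09% of all tested genes. So were 3 of 7 fibroblast and perineurium markers, but none of the SC, nonmyelinating and immature SC, or macrophage markers. Past it as lower were 3 of 10 SC markers and 3 of 7 nonmyelinating and immature SC markers, beside 4.44% of all tested genes. Vim overlapped in injured nerves and Gfap was lower. The 6 skeletal muscle markers summed to 0.889 to 28.0 CPM.

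Among 21 other intermediate filament genes, 10 were tested with injury in each genotype. In controls 5 were called higher and 4 lower, with a median log2 fold change of 0.35 beside -0.002 over all genes, and in RaptorKO nerves 5 were higher and 3 lower, with a median of 0.68 beside 0.03. Among all tested genes 32.4% were higher and 32.9% lower in controls, and 30.5% and 28.5% in RaptorKO nerves. Without a count minimum 6 genes of this list were lower in RaptorKO nerves. Lmnb1, the nuclear lamin B1, rose from 3.11 to 62.5 CPM in controls (log2 fold change 4.31 ± 0.172, adjusted p = 9.8e-10) and in RaptorKO nerves as well (2.99 ± 0.169, adjusted p = 1.64e-07). Bfsp2, a beaded filament protein known from the lens, fell from 13.8 to 1.31 CPM in controls (-3.41 ± 0.266, adjusted p = 3.14e-07). The keratin Krt19 fell by 3.37 ± 0.466 on the log2 scale in controls (adjusted p = 4.81e-05) and by 2.74 ± 0.532 in RaptorKO nerves (adjusted p = 0.0012), and Krt80 rose in RaptorKO nerves by 1.69 ± 0.313 (adjusted p = 0.000856). In controls Lmnb1 passed the count filter only through the injured nerves, and Bfsp2 and Krt19 only through the contralateral ones. In RaptorKO nerves Krt19 passed it only through the contralateral nerves and Krt80 only through the injured ones. These calls are no support for a direction of the list. In the interaction 1 of 11 was called, beside 1.07% higher and 1.41% lower over all genes. It was Lmnb1, whose rise was smaller in RaptorKO nerves by a log2 difference of -1.34 ± 0.24 (adjusted p = 0.00868).

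Of 9 genes for linkers that tie filaments to junctions, membranes, or the nucleus, 8 were matched and 5 tested. Of the tested genes 1 was called higher and 3 lower in controls, with a median of -0.37, and 2 higher and 3 lower in RaptorKO nerves, with a median of -0.39. The shares over all tested genes were 32.4% higher and 32.9% lower in controls, and 30.5% and 28.5% in RaptorKO nerves. The 2 higher calls, Macf1 (adjusted p = 0.0475) and Plec (adjusted p = 0.0487), became 0 to 1 with any of the 7 libraries left out and 0 with a replicate block. Ppl, which encodes periplakin, was all but lost with injury, from 791 to 3 summed counts in controls (fold 252, exact 95% interval 86.1 to 1230, counting error only) and from 1203 to 5 in RaptorKO nerves (fold 206, interval 88.1 to 636). Its log2 fold changes were -7.84 ± 0.423 (adjusted p = 1.02e-08) and -7.58 ± 0.268 (adjusted p = 7.89e-09), the former moving to -8.65 without control injured 1. Ppl passed the count filter only through the contralateral nerves, where it is high, so its calls are no support for a direction of the list. Dst, the cytoskeletal linker dystonin that is known to join filaments to microtubules and actin, fell from 1105 to 678 CPM in controls (-0.73 ± 0.105, adjusted p = 6.96e-05) and by 0.93 ± 0.0886 on the log2 scale in RaptorKO nerves (adjusted p = 7.09e-06). Syne3, which anchors filaments at the nuclear envelope, fell by 0.37 ± 0.127 in controls (adjusted p = 0.0233) and by 0.39 ± 0.104 in RaptorKO nerves (adjusted p = 0.00822). The control call of Syne3 was lost without control contralateral 2, control contralateral 3, control injured 3, or both libraries of control 3 (-0.18, adjusted p = 0.239 without both), and calls in both genotypes were lost with scaling by total counts. None of the 5 was called in the interaction by edgeR.

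All 16 genes for turnover and assembly of filaments, among them kinases, chaperones, and ubiquitin ligases, were tested with injury. In controls 6 were higher and 6 lower, with a median of -0.13, and in RaptorKO nerves 6 were higher and 5 lower, with a median of -0.19. Over all tested genes 32.4% were higher and 32.9% lower in controls, and 30.5% and 28.5% in RaptorKO nerves. Aurkb, a mitotic kinase that phosphorylates vimentin in dividing cells, rose from 9 to 1180 summed counts in controls (log2 fold change 7.02 ± 0.258, adjusted p = 4.56e-10) and by 4.83 ± 0.265 in RaptorKO nerves (adjusted p = 1.3e-07). Cdk5r1, the activator of the neurofilament kinase Cdk5, rose by 2.78 ± 0.363 (adjusted p = 3.03e-05) and 2.58 ± 0.362 (adjusted p = 0.000124). Bag3, a chaperone partner, rose by 1.68 ± 0.0873 (adjusted p = 9.16e-09) and 1.52 ± 0.115 (adjusted p = 1.29e-06). Aurkb and Cdk5r1 passed the count filter only through the injured nerves, where they are high. Their calls are therefore no support for a direction of the list. In the interaction 1 of the 16 was called, beside 1.07% higher and 1.41% lower over all genes. It was Aurkb at -2.21 ± 0.446 (adjusted p = 0.0166), and not without control contralateral 1 (adjusted p = 0.0622) or both libraries of control 3 (adjusted p = 0.0758).

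Genes with the most similar profile were found by the root mean square difference of centered log2 CPM over the 13 libraries, among 12850 genes. For Nefl these were Myoc at 0.516 and Erbb4 at 0.556, where the median gene was at 2.31. For Nefm they were Vit at 0.484 and Myoc at 0.528, with a median of 2.00, and for Nefh Crispld2 at 0.722 and Opcml at 0.726, with a median of 1.87. Prph lay nearest to Gm44220 at 0.261 and Mblac2 at 0.291, with a median of 1.21. Vim was closest to Nasp at 0.0855 and Vat1 at 0.113, with a median of 0.773, and Nes to Gbf1 at 0.0978 and Pcyox1 at 0.0985, with a median of 0.421. The nearest to Gfap were Aspa at 0.569 and Gm2115 at 0.652, with a median of 1.22. All these profiles share libraries and depth, and the distances are descriptions.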

How the data were processed

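Total RNA of 13 mouse sciatic nerves was sequenced, 1 library per nerve. Per the labels, the authors trimmed reads with Trimmomatic, used GRCm38 and estimated gene counts with RSEM 1.2.22, and they deposited these expected counts without normalization. Between 24.9% and 27.9% of the nonzero values per library were not whole, and all were rounded here. Of 40787 genes, 40550 were matched to GENCODE M21 by ID. Groups came from the labels.

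In R 4.3.3, libraries were TMM-scaled and genes with at least 50 counts in at least 2 libraries of a comparison were tested with the quasi-likelihood test of edgeR 4.0.16, with p-values adjusted over these genes by Benjamini-Hochberg and calls at an adjusted p below 0.05 and a fold change above 1.2. Log2 CPM used a prior count of 2. DESeq2 1.42.0 and the exact test of edgeR were alternatives. The steps were checked on simulated counts. Figures used Python 3.11.15 and matplotlib 3.10.9.

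The genes followed and all 12 lists (126 genes, 125 matched) were chosen with earlier results of these data known. From the other filament, linker, and turnover lists, the 3 called genes with the largest change per injury comparison and interaction were named, with the 2 nearest profiles per gene tested over all libraries. The neuron markers, Macf1, and Plec were chosen after their values were seen. Titles give the same number to an injured and a contralateral library of a genotype and the crush was unilateral, so these were read as 1 mouse. The 3 pairs of controls had deviations correlated at 0.0674, 0.129, and 0.305 and those of RaptorKO at -0.0239, 0.211, and 0.168, and both libraries of control 3 were high in Xist. The main fit had no block, and a fit with the replicate block was an alternative.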

Additional observations from a re-analysis of the deposited data

How the results depend on the processing

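Calls of the 8 genes with injury and in the interaction were recomputed with size factors, total count scaling, DESeq2, the exact test, no count minimum, a replicate block, each library left out, and, chosen after the data were seen, without both libraries of control 3. Genes below the count minimum were refitted without single libraries, also chosen then, and Nefh in controls ranged from -3.49 to -2.43. Counts of called genes stayed within 1.5 times the main count in all of them. In the genotype descriptions, contralateral nerves had 1 gene higher with all 13 libraries in 1 fit, and 1 to 2 higher and 0 to 1 lower with single libraries left out. They had 3 higher with DESeq2, the exact test, and total count scaling, where Nefm was also past the rule. Injured nerves had 1 higher (Nefh) with no count minimum. Nefh was no longer past the rule there without control injured 3, RaptorKO injured 1, or RaptorKO injured 3. Nes turned to 0.058 in RaptorKO nerves with total count scaling, and calls over all genes split into 5126 higher and 3176 lower in controls (main 4032 and 4087) and 4708 and 2835 in RaptorKO (main 3811 and 3561). The interaction of Nefl ranged from -1.11 to 2.56 with single libraries left out and was -0.66 without both libraries of control 3, and that of Nefm ranged from 1.25 to 3.11. With the replicate block, which pairs the nerves of a mouse, the genes called were again 2 higher and 3 lower in controls, 1 and 4 in RaptorKO nerves, and 0 and 0 in the interaction, and beside Gfap in the interaction and the higher linkers it changed no other call of a named gene. In the interaction 1 other filament gene was called higher in 4 of 19 settings. These held DESeq2, the fit with no count minimum, and at least 1 fit with a library left out. Per coding length, Gfap ranked above Prph and Nefl in control contralateral nerves. Low counts of the neuronal genes in injured nerves limit the size of their changes. The cause of these shifts was not tested.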
